A study of Mus musculus with 6 samples.

Results

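The Fc receptors for immunoglobulin and the proximal enzymes that carry their signal were examined in mouse embryonic fibroblasts (MEFs), the connective tissue cells of a dissociated embryo kept in culture. The 9 genes were *Fcgr1*, *Fcgr2b*, *Fcgr3*, *Fcgr4*, *Fcer1g*, *Lyn*, *Syk*, *Btk* and *Plcg2*, chosen by symbol from the 17092 genes of the count table, and all 9 were found. RNA from WT MEFs and from *Aff3ir-ORF2*-/- MEFs was sequenced to ask what the loss of *Aff3ir-ORF2*, a transcript nested in the *Aff3* locus, changes in these cells, with 3 libraries of each genotype. No treatment and no embryonic age are named for either group. By the study's methods the mice lacked *Aff3ir-ORF2* in every cell, from Cas9 mRNA and guide RNAs injected into fertilized eggs, and heterozygotes were intercrossed. Nothing states whether the libraries of a genotype came from separate embryos or cultures, so the p-values measure only the spread between these libraries, which may be technical.

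Fc gamma receptors bind the constant part of IgG and are known from macrophages and other leukocytes. *Fcgr1*, *Fcgr3* and *Fcgr4* encode activating receptors that signal through the FcR gamma chain encoded by *Fcer1g*, while *Fcgr2b* encodes an inhibitory receptor. On crosslinking, Src family kinases such as Lyn phosphorylate the tyrosine motifs (ITAMs) of the chain, Syk docks there, and the signal passes to the Tec family kinase Btk and to phospholipase C gamma 2.

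The total estimated count of a library lay between 17435133 and 18252330, and a count of 3, taken as the detection floor, corresponded to 0.164 to 0.172 CPM (counts scaled to the TMM-adjusted library total). The 3 WT libraries resembled each other more than the 3 *Aff3ir-ORF2*-/- libraries did, with a chi-square per degree of freedom of 1.38 to 1.71 between WT pairs and 5.56 to 18.9 between *Aff3ir-ORF2*-/- pairs. The genotype could not be checked on *Aff3ir* itself, which was not analysed here. The parent gene *Aff3* was at 406, 406 and 418 counts in WT replicates 1 to 3, against 229, 186 and 209 for *Aff3ir-ORF2*-/-. All 10 listed fibroblast markers were above 3 counts in every WT library, and their summed level was 24445 to 24520 CPM in WT and 21294 to 28005 CPM in *Aff3ir-ORF2*-/- libraries. Their levels were not the same in both genotypes: *Lum* (log2 fold change 2.17), *Dcn* (0.65) and *Pdgfrb* (0.59) were higher and *Col6a1* (-0.81) was lower by the test described next, and the other 6 were not called.

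Genes passing a filter on low counts were compared by the quasi-likelihood test of edgeR, with p-values adjusted by the Benjamini-Hochberg method over all 13075 tested genes. A gene was called when its adjusted p was under 0.05 and it differed at least 1.5-fold. Of the 9 genes, 8 were called higher in *Aff3ir-ORF2*-/- MEFs and 0 lower, and *Lyn* was not called. Over all tested genes, 14.3% were called higher and 7.32% lower. Only *Lyn*, *Syk* and *Plcg2* passed the filter in every WT library. The other 6 passed through the *Aff3ir-ORF2*-/- libraries alone, meaning here that not every WT library reached the cut-off. Such a filter favours genes that are higher in *Aff3ir-ORF2*-/- libraries, without fixing a call. These counts are therefore not support for a property of the set. Every *Aff3ir-ORF2*-/- library lay above every WT library for all 9 genes, as for 33.3% of all tested genes. In bulk RNA, more cells of a type and more RNA per cell cannot be told apart.

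**Figure D1:**
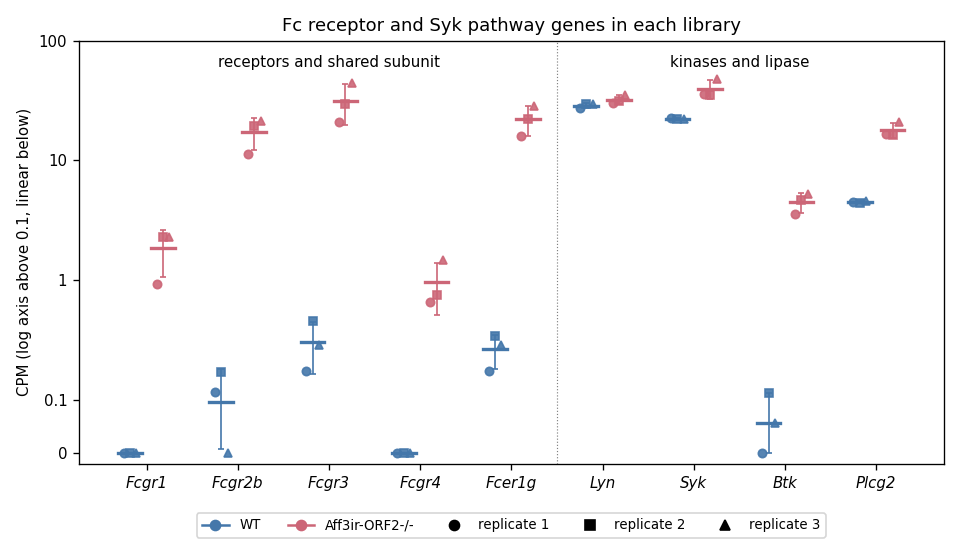
CPM of the 9 genes in each library, on an axis that is logarithmic above 0.1 and linear below, with WT in blue and *Aff3ir-ORF2*-/- in red, symbols for the replicates, and bars for mean ± SD (n = 3). The receptors, *Fcer1g* and *Btk* went from under 0.5 CPM in every WT library to 0.659 to 44.2 CPM, while *Lyn* and *Syk* were above 20 CPM in all 6 libraries.

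The 4 receptor genes are related in sequence, and reads shared between them would blur their counts, so their coding sequences (GENCODE M21, GRCm38) were compared first. *Fcgr2b* and *Fcgr3* were 84.5% identical over 781 aligned bases, with a longest shared run of 129 bases, whereas the other 5 pairs were 59.7% to 65.5% identical with shared runs of at most 14 bases. No window of 150 bases, the length of 1 read, was the same in any pair. The windows below, all in exon 4, show the stretch in which *Fcgr2b* and *Fcgr3* are most alike. They lie at chr1:170966523-170966672 on the minus strand, chr1:171054016-171054165 on the minus strand and, for *Fcgr4*, chr1:171025572-171025721 on the plus strand. Capitals in *Fcgr2b* and *Fcgr3* mark the 2 bases at which these genes differ from each other, and capitals in *Fcgr4* mark the 62 bases at which it differs from *Fcgr3*.
Fcgr2b: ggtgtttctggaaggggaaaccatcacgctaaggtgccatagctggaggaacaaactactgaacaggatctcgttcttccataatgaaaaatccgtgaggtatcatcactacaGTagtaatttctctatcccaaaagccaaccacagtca
Fcgr3: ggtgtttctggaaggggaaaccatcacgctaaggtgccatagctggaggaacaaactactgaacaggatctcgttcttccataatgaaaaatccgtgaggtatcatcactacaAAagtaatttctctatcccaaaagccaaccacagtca
Fcgr4: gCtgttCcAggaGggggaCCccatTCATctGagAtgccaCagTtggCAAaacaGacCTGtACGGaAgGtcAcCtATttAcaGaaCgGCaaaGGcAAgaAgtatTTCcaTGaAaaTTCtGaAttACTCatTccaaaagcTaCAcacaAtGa
How the counting treated reads that match more than 1 gene is not given in the sources used here, so the split between *Fcgr2b* and *Fcgr3* is uncertain. Counted as 1 gene, *Fcgr2b*, *Fcgr3* and *Fcgr4* together rose by 6.93 on the log2 scale (edgeR, adjusted p = 4.21e-06).

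Among the activating receptors, *Fcgr3* (gene ID 14131), a low-affinity IgG receptor, had 3, 8 and 5 counts in WT replicates 1 to 3 and 383, 548 and 812 in *Aff3ir-ORF2*-/- replicates 1 to 3. It was the most abundant receptor transcript by count in the *Aff3ir-ORF2*-/- libraries and close to the floor in WT. Its log2 fold change was 6.66 ± 0.44 (SE, adjusted p = 7.35e-06), a ratio of 103 with a 95% interval of 63.4 to 181 from an exact binomial interval on the pooled counts. Such intervals and floors cover counting error only.

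*Fcgr1* (gene ID 14129), the high-affinity IgG receptor, was at 0 in all 3 WT libraries and at 17, 43 and 42 counts in *Aff3ir-ORF2*-/- replicates 1 to 3. *Fcgr4* (gene ID 246256), a receptor for IgG2 subclasses, was at 0 in all 3 WT libraries and at 12, 14 and 27 counts. Both genes were thus detected in the *Aff3ir-ORF2*-/- libraries only. Against a floor of 3 counts in each WT library, *Fcgr1* was at least 10.7-fold higher and *Fcgr4* at least 5.58-fold higher in *Aff3ir-ORF2*-/- MEFs. Both were called higher (adjusted p = 6.95e-04 for *Fcgr1* and 0.00139 for *Fcgr4*), and their fitted log2 values of 8.05 and 7.12 depend on the prior count and are no bounds.

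*Fcgr2b* (gene ID 14130), the inhibitory receptor, had 2, 3 and 0 counts in WT replicates 1 to 3 and 208, 360 and 395 in *Aff3ir-ORF2*-/- replicates 1 to 3. The inhibitory gene therefore rose with the activating ones, from the floor in every WT library. Its ratio was 182 (95% counting interval 77.9 to 563) and its fitted log2 fold change 7.41 ± 0.48 (SE, adjusted p = 6.63e-06).

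Within the *Aff3ir-ORF2*-/- libraries, the 4 receptors stood in the same order by count in all 3, though their shares differed somewhat. Of 620, 965 and 1276 summed counts of the 4 receptors in replicates 1 to 3, *Fcgr3* took 61.8%, 56.8% and 63.6%, a mean of 60.7% ± 3.54 (SD, n = 3). The inhibitory *Fcgr2b* took 33.5%, 37.3% and 31.0%, a mean of 33.9% ± 3.19. *Fcgr1* took 3.50% ± 0.875 and *Fcgr4* 1.83% ± 0.344. The share of *Fcgr2b* depends on the length that counts are divided by, since its longest transcript has 3544 bases and that of *Fcgr3* 1347. It was 16.7% ± 2.09 per kb of longest transcript and 29.1% ± 3.04 per kb of coding sequence, and *Fcgr3* stayed the largest on each scale. The WT libraries held 5, 11 and 5 receptor counts, too few for shares.

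**Figure D2:**
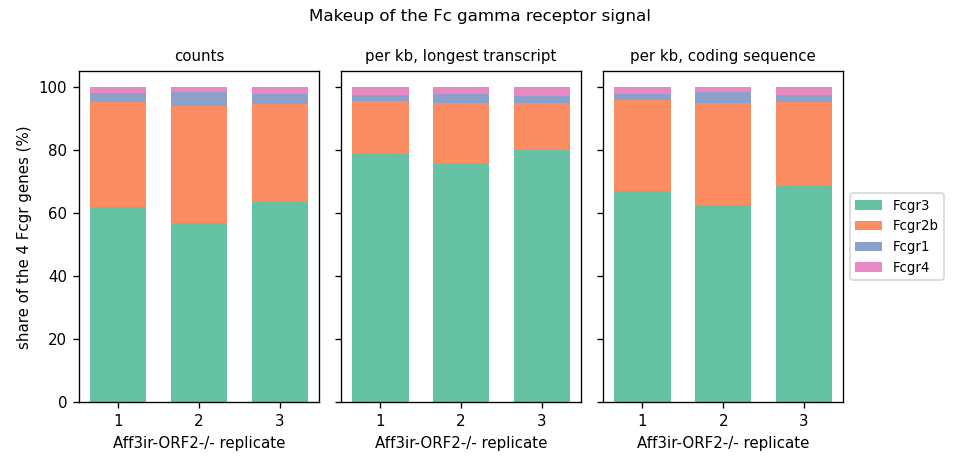
Share of each Fc gamma receptor gene in the summed signal of the 4 genes (percent) in the 3 *Aff3ir-ORF2*-/- libraries, from counts and from counts divided by 2 measures of gene length. *Fcgr3* is the largest part and *Fcgr2b* the next in each bar, and the part of *Fcgr2b* runs from 14.8% to 37.3% over scales and libraries.

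*Fcer1g* (gene ID 14127), the signalling chain shared by the activating receptors, had 3, 6 and 5 counts in WT replicates 1 to 3 and 291, 410 and 518 in *Aff3ir-ORF2*-/- replicates 1 to 3. The genotypes did not overlap, and *Aff3ir-ORF2*-/- replicate 1 was the lowest of its group. The log2 fold change was 6.33 ± 0.34 (SE, adjusted p = 3.16e-06), a ratio of 82.5 (95% counting interval 49.0 to 151). The tested genes whose pattern over the 6 libraries was nearest to that of *Fcer1g* were *Itgam*, *Laptm5*, *Adgre1* and *Trem2*, with a root mean square difference in centred log2 CPM of 0.155, 0.166, 0.166 and 0.169.

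The enzymes fell into different patterns. *Syk* (gene ID 20963), the kinase that binds phosphorylated ITAMs, had 387, 386 and 385 counts in WT replicates 1 to 3 and 653, 660 and 873 in *Aff3ir-ORF2*-/- replicates 1 to 3. The WT libraries lay close together, at 22.1 ± 0.262 CPM (SD, n = 3), and the rise was 1.79-fold to 39.6 ± 6.89 CPM. Its log2 fold change was 0.84 ± 0.11 (SE, adjusted p = 3.02e-04), and with a 2-fold criterion *Syk* was not called. Genes near it in pattern were *Dlk1*, *Ninj1* and LOC115488290, with root mean square differences of 0.0460, 0.0478 and 0.0548.

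*Plcg2* (gene ID 234779), which cleaves a membrane lipid to release calcium, had 77, 77 and 80 counts in WT replicates 1 to 3 and 305, 304 and 381 in *Aff3ir-ORF2*-/- replicates 1 to 3. It was present in WT and rose 4.01-fold, with a log2 fold change of 2.0 ± 0.12 (SE, adjusted p = 4.93e-06). *Plcg1*, the form of most tissues, was at 1415, 1379 and 1383 counts for WT replicates 1 to 3, against 1412, 1478 and 1456 for *Aff3ir-ORF2*-/-, with a log2 fold change of -0.02 ± 0.04 (SE, adjusted p = 0.692).

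*Btk* (gene ID 12229), the Tec family kinase of B cells and myeloid cells, had 0, 2 and 1 counts in WT replicates 1 to 3 and 65, 87 and 96 in *Aff3ir-ORF2*-/- replicates 1 to 3. Like the receptors it came from the floor, with a ratio of 78.3 (95% counting interval 26.5 to 382) and a fitted log2 fold change of 6.13 ± 0.44 (SE, adjusted p = 1.06e-05).

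*Lyn* (gene ID 17096), the Src family kinase that phosphorylates ITAMs and also the inhibitory motif of *Fcgr2b*, had 469, 515 and 518 counts in WT replicates 1 to 3 and 544, 586 and 646 in *Aff3ir-ORF2*-/- replicates 1 to 3. The libraries did not overlap, but the highest WT library (29.7 CPM) and the lowest *Aff3ir-ORF2*-/- library (29.9 CPM) nearly touched. Its log2 fold change of 0.16 ± 0.07 (SE) did not pass the test (adjusted p = 0.0901). With upper quartile scaling it was 0.20 (adjusted p = 0.0445), still under 1.5-fold.

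Levels of different genes were compared per kb of the longest transcript. In WT the order was *Lyn* (8.29 ± 0.382 CPM per kb, SD, n = 3), *Syk* (4.13 ± 0.0488), *Plcg2* (1.04 ± 0.0232) and *Fcer1g* (0.391 ± 0.125), with the other genes below. In *Aff3ir-ORF2*-/- MEFs, *Fcer1g* (32.3 ± 8.97 CPM per kb) and *Fcgr3* (23.4 ± 8.73) stood first, above *Lyn* (9.29 ± 0.791), *Syk* (7.39 ± 1.29), *Fcgr2b* (4.92 ± 1.5), *Plcg2* (4.17 ± 0.571), *Btk* (1.77 ± 0.333), *Fcgr4* (0.765 ± 0.354) and *Fcgr1* (0.712 ± 0.304). The WT libraries thus held *Lyn* and *Syk* with the receptors and *Btk* near or at the floor, while in *Aff3ir-ORF2*-/- libraries the shared chain and *Fcgr3* exceeded *Lyn* and *Syk* per kb. The ranges of *Fcer1g* and *Fcgr3*, of *Lyn* and *Syk*, of *Fcgr2b* and *Plcg2*, and of *Fcgr4* and *Fcgr1* overlapped. Within each *Aff3ir-ORF2*-/- library, *Fcer1g* was above *Fcgr3* and *Lyn* above *Syk* on this scale. The order of *Fcgr2b* and *Plcg2*, and that of *Fcgr4* and *Fcgr1*, changed between libraries, so these neighbours cannot be ordered. Per kb of coding sequence, *Syk* (20.99 ± 3.65) and *Lyn* (20.9 ± 1.78) were level and *Fcgr2b* (17.1 ± 5.21) followed closely.

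The spread within the *Aff3ir-ORF2*-/- group was shared by most of the genes. Replicate 1 was the lowest for 7 of the 9 genes and replicate 3 the highest for 8. The highest library was 2.47 times the lowest for *Fcgr1*, 2.23 for *Fcgr4*, 2.10 for *Fcgr3*, 1.88 for *Fcgr2b*, 1.77 for *Fcer1g* and 1.47 for *Btk*. For the genes already present in WT it was less, 1.34 for *Syk*, 1.27 for *Plcg2* and 1.18 for *Lyn*.

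Macrophage markers moved with these genes. Of 15 listed markers, 14 were tested and all 14 were called higher, beside 14.3% of all tested genes. However, *Adgre1*, *Spi1*, *Mrc1*, *C1qa*, *C1qb* and *C1qc* passed the low-count filter through the *Aff3ir-ORF2*-/- libraries alone, which favours genes higher there. The remaining marker, *Aif1*, was at 0 in every WT library and at 1, 3 and 5 counts in *Aff3ir-ORF2*-/- replicates 1 to 3. In WT, *C1qa*, *C1qb* and *Aif1* were at 0 in every library, *C1qc* and *Spi1* were at 3 counts or fewer, and 9 markers were above 3 counts in every library. The 4 most counted were *Lyz2* (14471 to 25195 counts in *Aff3ir-ORF2*-/- libraries), *Mpeg1* (2506 to 4280), *Ctss* (2362 to 3462) and *Mrc1* (838 to 1532). The summed level of the list was 25.1 to 28.2 CPM in WT and 1326, 1842 and 2271 CPM in *Aff3ir-ORF2*-/- replicates 1 to 3.

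Read against that sum within the *Aff3ir-ORF2*-/- group, *Fcer1g* was 1.21%, 1.19% and 1.24% of it in replicates 1 to 3, the highest 1.04 times the lowest. *Btk* was 0.269%, 0.254% and 0.230%, *Fcgr2b* 0.862%, 1.05% and 0.948%, and *Fcgr3* 1.59%, 1.6% and 1.95%. For these 4 genes the highest ratio was 1.04 to 1.23 times the lowest, against 1.71 times for the sum itself. It was 1.78 times for *Fcgr1* and 1.59 times for *Fcgr4*, which have few counts, and 1.41 to 1.45 times for *Syk*, *Plcg2* and *Lyn*. The rise of *Syk* over the WT mean was 13.7, 13.3 and 25.4 CPM, and that of *Plcg2* 12.3, 11.8 and 16.3 CPM. Neither followed the order of the sum in replicates 1 and 2. The rise of *Lyn*, which was not called, was 1.16, 2.74 and 6.49 CPM and did follow that order. These are values of 3 libraries with no test, and the part of macrophage markers in the results was not tested.

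**Figure D3:**
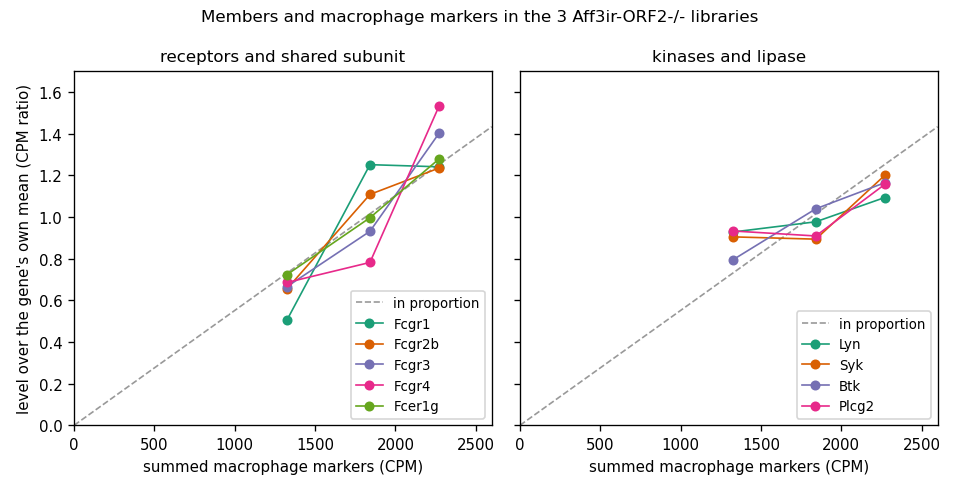
CPM of each gene over its own mean in the 3 *Aff3ir-ORF2*-/- libraries (vertical) against the summed CPM of 15 macrophage markers in the same library (horizontal), with a dashed line for strict proportion. *Fcer1g* lies along the line, while *Syk*, *Plcg2* and *Lyn* are flatter than it.

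Markers of other cell types, several of them known to carry Fc receptors, were counted for comparison. Of the B cell list, *Pax5* and *Cd79a* were at 3 counts or fewer in all 6 libraries, *Cd22* was at 0 in every WT library and at 17, 24 and 26 counts in *Aff3ir-ORF2*-/- replicates 1 to 3, and *Ebf1* fell. The summed level, mostly *Ebf1*, was 62.7 to 64.8 CPM in WT and 29.7 to 32.0 CPM in *Aff3ir-ORF2*-/- libraries, from 4 of 8 listed genes. Mast cell and basophil markers (5 of 8 genes, none tested) summed to 0.341 to 0.572 and 0.381 to 0.824 CPM, with *Cpa3* at 0 in every WT library. T and NK cell markers (4 of 8, none tested) summed to 0.232 to 0.916 and 0.604 to 1.09 CPM, with *Cd4* and *Klrb1c* at 0 in every WT library. Neutrophil markers (5 of 8) summed to 0.0569 to 0.406 and 1.45 to 2.34 CPM, where *S100a8* was the 1 gene tested and called higher and *Csf3r* went from 0 to 9, 13 and 21 counts. Dendritic cell markers (4 of 6) summed to 1.99 to 2.86 and 3.68 to 4.24 CPM, with *Zbtb46* the 1 gene tested and called higher and *Clec9a* at 0 in every WT library. Platelet markers (5 of 6) summed to 10.4 to 12.7 and 9.77 to 25.4 CPM, with *Pf4* called higher among 4 tested. Endothelial markers (6 of 8) summed to 7.66 to 8.47 and 14.1 to 19.9 CPM, with *Kdr* and *Vwf* called higher and *Cdh5* lower among 4 tested. *S100a8* and *Pf4* passed the low-count filter through the *Aff3ir-ORF2*-/- libraries alone, which favours genes higher there. The listed genes not counted here were not analysed, and the part of these lists was not tested.

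The wider pathway was read from 102 further genes listed by role, of which 95 were in the table and 75 were tested. Of these, 41 were called higher and 1 lower, beside 14.3% and 7.32% of all tested genes, with a median log2 fold change of 0.92 beside 0.01. However, 29 of the 41 passed the low-count filter through the *Aff3ir-ORF2*-/- libraries alone, which favours genes higher there. Of the 46 pathway genes that passed in WT, 12 were higher and 1 lower. The plot of changes by role gives each gene, and no difference between roles was tested. All 6 tested ITAM adaptors and coupled receptors passed through *Aff3ir-ORF2*-/- libraries alone, as did 12 of the 19 inhibitory receptors and phosphatases, whereas all 7 other Src, Syk and Tec family kinases passed in WT, and 0 of those 7 were called.

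**Figure D4:**
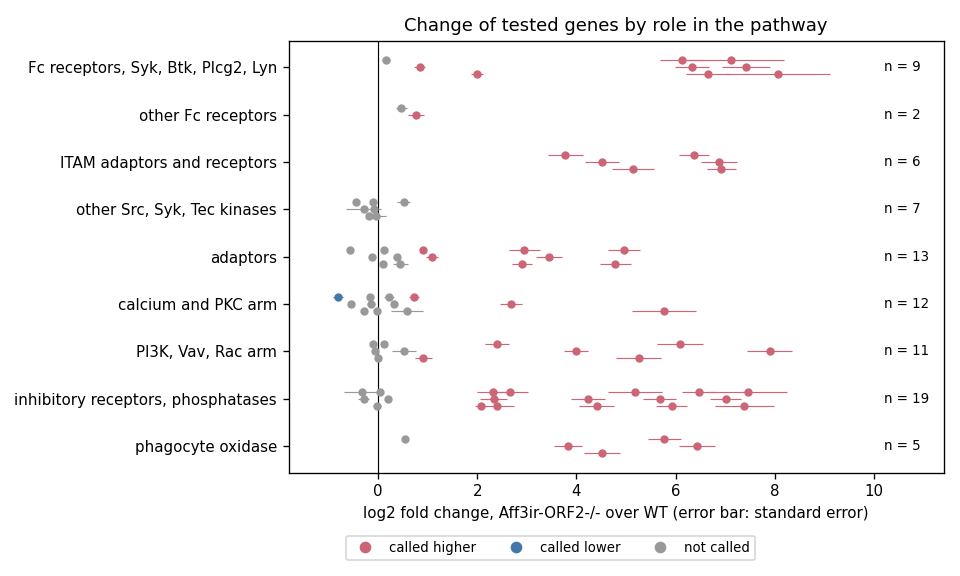
Log2 fold change (*Aff3ir-ORF2*-/- over WT) with its standard error for each tested gene, grouped by role, in red where called higher, blue where called lower and grey where not called. The other Src, Syk and Tec kinases lie near 0, while adaptors, PI3K and inhibitory genes divide into a cluster near 0 and a spread of high values.

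Among ITAM adaptors and receptors, *Tyrobp*, which encodes the adaptor DAP12, had 2, 6 and 2 counts in WT replicates 1 to 3 and 372, 421 and 531 in *Aff3ir-ORF2*-/- replicates 1 to 3, a log2 fold change of 6.92 ± 0.28 (SE, adjusted p = 1.31e-06). Among the tested receptors that pair with DAP12 or the FcR gamma chain, *Clec4d* rose by 6.88, *Trem2* by 6.37 and *Clec4n* by 5.14 on the log2 scale. Some other listed receptors of this kind did not pass the filter and were not tested. *Clec7a*, the beta-glucan receptor with its own ITAM-like motif, rose by 4.52. Among other Fc receptors only 2 were tested, the cytosolic antibody receptor *Trim21*, which was higher (log2 fold change 0.77), and the neonatal receptor *Fcgrt*, at 0.47 (adjusted p = 0.00487) and under the 1.5-fold criterion.

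Among other kinases, *Fyn* had a log2 fold change of -0.44 ± 0.06 (SE, adjusted p = 4.98e-04), *Tec* 0.52 (adjusted p = 0.00895) and *Csk*, which restrains Src family kinases, -0.17 (adjusted p = 0.0125), all under 1.5-fold. *Src* was at -0.10 (adjusted p = 0.165). *Lyn* made up 7.57% to 8.63% of the summed counts of 7 Src family genes in WT and 9.74% to 11.9% in *Aff3ir-ORF2*-/- libraries. *Fyn* was the largest of them, at 47.9% to 49.6% and 38.6% to 43.9%.

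Of 13 tested adaptors, 7 were higher, beside 14.3% of all tested genes. Of the 7 higher adaptors, 3, with *Lcp2* and *Pik3ap1* among them, passed the low-count filter through the *Aff3ir-ORF2*-/- libraries alone, which favours genes higher there. *Lcp2*, the scaffold SLP-76 that joins Syk to phospholipase C, rose by 4.78 on the log2 scale, *Pik3ap1* by 4.96, *Fyb* by 3.45 and *Lat2* by 2.90. The broadly expressed *Cbl* (0.13, adjusted p = 0.0329) and *Grb2* (0.11, adjusted p = 0.103) were not called. In the calcium and protein kinase C arm 3 of 12 were higher and 1 lower, beside 14.3% and 7.32% of all tested genes. *Card9*, which links Syk to NF-kappa B, rose by 5.76 and *Prkcb* by 2.69, and *Card9* passed through the *Aff3ir-ORF2*-/- libraries alone. *Itpr3*, a calcium release channel, fell by 0.81, and the calcium sensor *Stim1* was at -0.54 (adjusted p = 5.46e-05), just under 1.5-fold.

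In the PI3K, Vav and Rac arm 6 of 11 were higher, beside 14.3% of all tested genes. The haematopoietic forms rose, *Vav1* by 7.89, *Rac2* by 6.09, *Was* by 5.25 and *Pik3cg* by 3.99 on the log2 scale. These 4 passed the low-count filter through the *Aff3ir-ORF2*-/- libraries alone, which favours genes higher there. Of the 7 that passed in WT, 2 were higher. The broadly expressed *Rac1* (-0.07, adjusted p = 0.198) and *Arpc1b* (0.00, adjusted p = 0.941) were not called. Of 19 inhibitory receptors and phosphatases, 14 were higher. Of these, 12 passed through the *Aff3ir-ORF2*-/- libraries alone, with *Lilrb4a*, *Inpp5d* and *Pirb* among them. *Lilrb4a* rose by 7.01, *Inpp5d*, the SHIP phosphatase recruited by *Fcgr2b*, by 6.47, *Pirb* by 5.91 and *Sirpa* by 2.07. *Ptpn11* (0.05, adjusted p = 0.396) and *Inppl1* (0.20, adjusted p = 0.0128) were not called. *Lilrb4a*, *Pirb* and *Clec4n* have close relatives in the genome, so their counts are uncertain. Of the phagocyte oxidase, which makes superoxide, *Ncf1* rose by 6.43, *Cybb* by 5.77 and *Ncf4* by 4.52. These 3 also passed through the *Aff3ir-ORF2*-/- libraries alone. *Cyba* was at 0.54 (adjusted p = 1.11e-04) and under 1.5-fold.

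The calls followed the WT level. All 29 tested pathway genes with at most 10 counts in at least 1 WT library were called higher, beside 65.02% of the 789 tested genes of that kind, but such genes pass the filter largely through *Aff3ir-ORF2*-/- libraries. Of the 34 pathway genes with more than 100 counts in every WT library, 4 were higher and 1 lower with a median log2 fold change of 0.03, beside 6.29% higher and 7.03% lower of all 9858 such genes.

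The genes beside the 9 loci in the RefSeq gene table were read as well. *Fcgr2b*, *Fcgr4* and *Fcgr3* follow each other in that table, with *Gm39701* before them at a log2 fold change of -0.21 (adjusted p = 0.0883). Of the other tested neighbours *Tgs1*, *Rps20*, *Diras2*, *Auh*, *Timm8a1*, *Rpl36a*, *Cmip* and *Sdr42e1*, 0 were called, with log2 fold changes of -0.53 to 0.46.

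Because the receptors and *Btk* rose together from the floor, their promoters were read. *Spi1*, which encodes the myeloid transcription factor PU.1, was at 3, 1 and 2 counts for WT replicates 1 to 3, against 123, 165 and 231 for *Aff3ir-ORF2*-/- (log2 fold change 6.27, standard error 0.42, adjusted p = 7.93e-06). RefSeq promoters (GRCm38.p6) of 300 bases, 250 before and 50 after the start, were at hand for 8 of the 9 genes, and *Lyn* had no entry. The motif GAGGAA, a purine-rich core of the kind that PU.1 binds, was searched on both strands and was chosen after promoter sequences had been looked at. It stood in at least 1 window of 5 of the 8 genes (62.5%), beside 31.3% of all 27025 genes with a promoter. The longer GAGGAAGT, which contains it, stood in *Fcgr4* alone of the 8 (12.5%), beside 3.7% of all genes. The receptor and *Btk* promoters that held a match are printed, with capitals for the motif read from the other strand. The windows are chr3:96293920-96294219 on the minus strand for *Fcgr1*, chr1:171059345-171059644 on the minus strand for *Fcgr3*, chr1:171018676-171018975 on the plus strand for *Fcgr4* and chrX:134583091-134583390 on the minus strand for *Btk*.
Fcgr1: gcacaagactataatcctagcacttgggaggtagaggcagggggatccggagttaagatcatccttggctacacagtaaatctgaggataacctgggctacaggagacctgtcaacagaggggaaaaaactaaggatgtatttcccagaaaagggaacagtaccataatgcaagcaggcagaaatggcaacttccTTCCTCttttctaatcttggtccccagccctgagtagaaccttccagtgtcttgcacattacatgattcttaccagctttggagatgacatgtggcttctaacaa
Fcgr3: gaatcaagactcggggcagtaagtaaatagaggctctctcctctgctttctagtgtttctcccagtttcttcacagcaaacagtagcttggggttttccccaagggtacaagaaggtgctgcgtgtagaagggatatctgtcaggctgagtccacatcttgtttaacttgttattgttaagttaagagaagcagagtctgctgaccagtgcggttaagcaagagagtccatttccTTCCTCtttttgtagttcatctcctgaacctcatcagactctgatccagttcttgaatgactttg
Fcgr4: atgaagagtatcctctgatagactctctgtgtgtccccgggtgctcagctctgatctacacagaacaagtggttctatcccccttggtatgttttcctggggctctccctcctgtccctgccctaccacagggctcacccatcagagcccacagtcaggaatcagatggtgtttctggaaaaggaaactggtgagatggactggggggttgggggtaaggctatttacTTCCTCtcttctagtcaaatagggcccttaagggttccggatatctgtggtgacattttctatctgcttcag
Btk: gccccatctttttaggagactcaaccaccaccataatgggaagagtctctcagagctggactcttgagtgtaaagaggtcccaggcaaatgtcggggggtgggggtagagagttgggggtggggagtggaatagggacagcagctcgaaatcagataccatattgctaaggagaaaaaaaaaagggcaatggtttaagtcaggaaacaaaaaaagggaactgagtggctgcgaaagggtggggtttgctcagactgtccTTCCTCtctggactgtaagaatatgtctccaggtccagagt
The match began at -55 in *Fcgr1*, -15 in *Fcgr3* for the start shown, -22 in *Fcgr4* and 9 in *Btk*, counted from the start of transcription. A second start of *Syk* held the motif at -9, while *Fcer1g*, *Fcgr2b* and *Plcg2* had none in these windows. A match is a description of the letters and shows no binding.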

How the data were processed

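RNA of 3 WT and 3 *Aff3ir-ORF2*-/- MEF libraries was sequenced with paired-end reads on a DNBSEQ instrument and filtered with SOAPnuke by the study's methods. The authors deposited a single table that gives an estimated count for every gene in every library, without any scaling. The submitters' processing notes name the build mm8, while the aligner, the counter and the annotation are not given in the sources used here. Sequences and lengths came from GENCODE M21 and RefSeq on GRCm38, so their coordinates are not those of the counting. In each library 10.6% to 11.3% of values were fractional, and the deposited estimated counts were rounded first (53 of the 54 values of the 9 genes were whole).

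Genes were filtered with filterByExpr (minimum count 10, minimum total count 15), scaled by TMM (factors 0.989 to 1.02) and tested with the quasi-likelihood test of edgeR 4.0.16 (R 4.3.3) without covariates. Standard errors are the size of a log2 fold change over the square root of F. The code was tested on simulated data. The alternatives were other scalings and filters, the unadjusted p, a 2-fold change, unrounded counts, DESeq2 1.42.0, limma 3.58.1 voom, a replicate block, and leaving out each library. Length per coding sequence and the pathway list without marker genes were added after seeing the data. Sequences and figures used Python 3.11.15, Biopython 1.88 and matplotlib 3.10.9.

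The 9 genes, the lists and the tests were chosen with earlier results of these data known. The genes named were the 9, up to 4 of each role with the lowest adjusted p and 2 with the most counts, markers at the floor and up to 4 by counts, the 4 genes nearest in pattern to *Fcer1g* and to *Syk* (average log2 CPM not under 1), the neighbours, and *Aff3*. Some genes that follow from this rule are left out here. Further markers, chosen after their values were seen, are named to account for a list's calls. The submitters' label names Trizol for RNA extraction and the study's methods the MagicPure Total RNA Kit.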

Additional observations from a re-analysis of the deposited data

How the results depend on the processing

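Of the 9 genes, the 8 called higher kept that direction and a call at the adjusted p of 0.05 under each alternative in which they were tested. At least 10 counts in every library left 3 of the 9 genes, of which 2 were called higher, and 44 pathway genes, of which 12 were, because genes at the floor in WT are then not tested. A 2-fold criterion left 7 of the 9 genes, without *Syk*, and 0 pathway genes lower. No filter gave 3 pathway genes lower, and leaving out each library in turn gave 1 to 2 (2 without WT replicate 3 and without *Aff3ir-ORF2*-/- replicate 1), and the cause was not tested. The mean share of *Fcgr2b* was 16.7% per kb of longest transcript and 29.1% per kb of coding sequence, the latter chosen after seeing the data, which follows from the lengths divided by. *Lyn* ranged from 0.09 to 0.21 on the log2 scale over the alternatives, with adjusted p from 0.0445 to 0.288, the lowest with upper quartile scaling (0.20). The fitted log2 fold changes of the genes at 0 in WT moved most, *Fcgr1* from 5.92 to 8.36 and *Fcgr4* from 5.02 to 7.31. Without genes that also stand in a marker list, 40 of 74 pathway genes were higher and 1 lower. The labels give no pairing of WT and *Aff3ir-ORF2*-/- libraries beyond the replicate number. Deviations from the group means correlated weakly between libraries of the same number, at 0.0386, 0.0424 and 0.0145. Each library correlated best with its own number, the other pairs lying at -0.0369 to 0.00462. Whether libraries of the same number were paired was not tested. With the replicate block, 8 of the 9 genes and 41 pathway genes were higher and 1 pathway gene lower, and the calls over all genes went from 1865 and 957 to 1870 and 975. No direction of a result was turned by an alternative. With 102 and 53 counts over the *Aff3ir-ORF2*-/- group, *Fcgr1* and *Fcgr4* are the least precise.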
